A study of Mus musculus with 4 samples.

Results

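Genes of the Fanconi anemia pathway and of neighbouring DNA repair pathways were read in mouse bone marrow progenitors that had lost Smo, the gene for Smoothened, which passes on the hedgehog signal, and in progenitors that had kept it. The set was a list of 38 genes given by name, drawn up with earlier results of these data known, and all probe sets carrying one of these names in the platform annotation were taken. For 37 of the 38 genes this gave 83 probe sets, out of 45037 probe sets and 18193 named genes on the array. Xrcc2 had no probe set under its name and was not analysed here. Each gene was represented by its brightest probe set over the 4 arrays, and 36 of the 37 genes, all but Lig4, lay above the filter on dim probe sets, a log2 intensity of 7.23.

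The series held 4 Affymetrix arrays, 1 for each group. The Smo-deficient LSK and Smo-deficient MP groups came from mice of genotype Smo flox/flox, Mx1Cre+, and the WT LSK and WT MP groups from mice of genotype Smo flox/flox, Mx1Cre-. LSK cells (Lin-ckit+Sca1+) are the fraction of marrow that holds stem cells and multipotent progenitors, and MP cells (Lin-ckit+Sca1-) are myeloid progenitors. The WT controls thus carried the floxed alleles too, and all mice received 3 injections of polyI:C, an inducer of interferon, at 20 ug per g, with marrow taken 6 weeks later. The Mx1 promoter answers to interferon in many cell types, so deletion need not have been limited to blood cells, and the presence of Cre itself differed between the genotypes. Each genotype was 1 pool of marrow from 4 mice, males and females mixed, with no age given in the labels, and both populations were sorted from that pool. The strain label read C57BL/6x129 for WT LSK and ended in another number for each other group, although the populations of a genotype shared their mice. With 1 array per group the genotype comparison has no replicate, and in bulk samples fewer cells of a type and less RNA per cell cannot be told apart.

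The Fanconi pathway repairs cross-links between the DNA strands. A core complex of Fanconi proteins attaches ubiquitin to FANCD2 and its partner FANCI at a stalled replication fork, and the lesion is then unhooked and repaired by homologous recombination, in which BRCA1, PALB2 and BRCA2 take part. Other breaks are rejoined end to end by the Ku proteins, DNA-PK and the LIG4 and XRCC4 ligase, while the kinases ATM and ATR signal the damage to the checkpoint. In blood formation this pathway is known from Fanconi anemia, an inherited bone marrow failure in which stem and progenitor cells are lost. Many of these genes are transcribed most in dividing cells, in part through E2F factors at their promoters.

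Promoter sequence is shown because it is the region through which such shared, cycle-linked control is thought to act. RefSeq promoter windows of 300 bases (GRCm38.p6, 250 bases before to 50 after the start of the gene) were matched by gene identifier for 31 of the 37 measured genes, giving 34 windows. The windows were searched on both strands for 4 E2F-like words (TTTGGCGC, TTTCCCGC, TTTGGCGG and TTTCGCGC), for CCAAT, and for the words TTTGAA and TTCGAA, which resemble the cell cycle homology element. An E2F-like word stood in 8 of the 31 genes (25.8%), against 5.03% of the 9617 genes above the filter that had a window, and in 2.37% of all 32851 windows. CCAAT stood in 18 of the 31 genes (58.1%), against 42.5% of the genes above the filter. TTTGAA or TTCGAA stood in 2 of the 31 genes, Atr and Bard1 (6.45%), against 16.5%. A match is a description of letters and says nothing of binding.

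The stretches around the E2F-like words are shown for comparison, 5′ to 3′ in the direction of the gene, with the word in capitals and up to 10 bases on each side. The first base of the word lay between 209 bases before the start of the gene (Bard1) and base 40 after it (Chek1), and Rad51c had a match in each of its windows. The sequences were these.
Bard1 (chr1:71103164-71103191, - strand): cgccgctcagTTTCCCGCtcaggaagtt
Fancg (chr4:43010336-43010363, - strand): ttcttttcagTTTCCCGCggaaccgtct
Chek2 (chr5:110839821-110839848, + strand): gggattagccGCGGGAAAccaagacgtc
Brca2 (chr5:150522443-150522470, + strand): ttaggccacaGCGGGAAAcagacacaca
Chek1 (chr9:36726609-36726629, - strand): gcaagcaggtTTTGGCGGgaa
Rad51c (chr11:87404478-87404505, - strand): tttccagcgcTTTCGCGCctcttgctct
Rad51c (chr11:87404942-87404969, - strand): ccccgcgaggGCGGGAAAagcaaggggt
Xrcc6 (chr15:82016313-82016340, + strand): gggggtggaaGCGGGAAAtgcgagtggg
Msh6 (chr17:87975055-87975082, + strand): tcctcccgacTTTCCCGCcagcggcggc
In 5 of these 9 stretches the word runs in the gene's direction, as TTTCCCGC, TTTGGCGG or TTTCGCGC, and in the other 4 it is read as GCGGGAAA, the reverse complement of TTTCCCGC.

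Whole windows follow for 4 genes named in the comparisons below. Bard1, Blm and Xrcc5 were at least 1.5-fold lower in 1 of the genotype comparisons, and Lig3 passed the test between LSK and MP. Fancd2 and Xpc passed that test too, but neither had a window, so they are not shown. Capitals mark any of the searched words on either strand, and no marked word overlaps another.
Bard1 (chr1:71102923-71103222, - strand): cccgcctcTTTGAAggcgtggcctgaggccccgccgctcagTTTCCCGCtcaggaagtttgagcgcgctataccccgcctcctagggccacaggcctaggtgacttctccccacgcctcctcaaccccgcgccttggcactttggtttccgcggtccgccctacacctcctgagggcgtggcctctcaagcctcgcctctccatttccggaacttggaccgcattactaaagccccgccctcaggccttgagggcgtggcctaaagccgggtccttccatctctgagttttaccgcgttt
Blm (chr7:80534949-80535248, - strand): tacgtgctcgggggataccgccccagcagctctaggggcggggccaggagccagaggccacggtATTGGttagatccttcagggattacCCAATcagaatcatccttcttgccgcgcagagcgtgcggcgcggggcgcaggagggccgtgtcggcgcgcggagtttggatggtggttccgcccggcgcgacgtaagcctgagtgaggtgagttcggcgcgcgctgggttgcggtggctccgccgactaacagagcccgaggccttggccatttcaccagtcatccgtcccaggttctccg
Xrcc5 (chr1:72307171-72307470, + strand): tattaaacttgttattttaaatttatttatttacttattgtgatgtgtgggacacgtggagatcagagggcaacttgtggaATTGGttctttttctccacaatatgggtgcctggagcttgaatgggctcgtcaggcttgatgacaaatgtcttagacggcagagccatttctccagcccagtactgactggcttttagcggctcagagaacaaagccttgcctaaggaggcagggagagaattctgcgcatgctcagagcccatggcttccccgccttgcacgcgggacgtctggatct
Lig3 (chr11:82780859-82781158, + strand): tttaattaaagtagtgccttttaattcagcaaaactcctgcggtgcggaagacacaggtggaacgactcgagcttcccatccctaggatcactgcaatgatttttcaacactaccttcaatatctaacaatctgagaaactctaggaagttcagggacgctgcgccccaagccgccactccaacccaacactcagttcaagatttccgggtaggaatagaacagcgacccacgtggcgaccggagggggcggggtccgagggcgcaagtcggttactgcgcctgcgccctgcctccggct
The Bard1 window holds both TTTGAA and TTTCCCGC close to its upstream end. Blm holds CCAAT and its reverse complement ATTGG, Xrcc5 holds ATTGG, and the Lig3 window holds none of the words.

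The arrays were read for the labelled cells and genotype before the genes themselves. On the brightest Smo probe set the log2 intensity was 6.96 in Smo-deficient LSK and 10.02 in WT LSK, and 7.94 in Smo-deficient MP and 9.72 in WT MP. The other bright Smo probe set read 6.13 in Smo-deficient LSK and 10.81 in WT LSK, and 6.36 in Smo-deficient MP and 10.40 in WT MP. The remaining Smo probe set was dim on all arrays, between 4.39 and 4.70. Of 8 measured LSK and stem cell markers, 7 were called higher in LSK than in MP with limma, all but Kit, and all 9 myeloid progenitor markers were called lower. Ly6a, the gene for Sca-1, was not analysed here. As a sign of RNA quality, Actb control probe sets at the 3′ end exceeded those at the 5′ end by 1.53 and 1.55 in Smo-deficient and WT LSK and 1.31 and 1.34 in Smo-deficient and WT MP. For Gapdh this excess was 1.78 and 1.57 in Smo-deficient and WT LSK and 1.60 and 1.59 in Smo-deficient and WT MP. The hybridisation spikes averaged 11.10 and 10.95 in Smo-deficient and WT LSK and 10.58 and 10.90 in Smo-deficient and WT MP, and the poly-A spikes 7.76 and 7.93 in Smo-deficient and WT LSK and 7.40 and 7.62 in Smo-deficient and WT MP. Smo-deficient MP was the lowest array on both kinds of spike, and the part of this in the repair gene values in MP was not tested.

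Most of the repair genes were slightly lower in the Smo-deficient pool, in LSK and in MP. Of the 36 genes above the filter, 29 (80.6%) had a lower value in Smo-deficient LSK than in WT LSK, against 53.2% of all 11904 genes above the filter. In MP 30 of the 36 (83.3%) were lower in Smo-deficient cells, against 59.7% of all genes. Over the 37 measured genes the median log2 difference was -0.11 in LSK and -0.25 in MP, beside medians over all 18193 genes of -0.03 in both. Above the filter the medians were -0.11 in LSK and -0.25 in MP for the listed genes. For all genes above the filter they were -0.02 in LSK and -0.05 in MP. The differences were small: none of the 36 genes reached 2-fold in LSK or MP, where 0.949% and 0.563% of all genes did.

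At 1.5-fold, a log2 difference of 0.58, very few of the genes stood out. In LSK 1 of the 36 genes was at least 1.5-fold lower (Blm), 2.78% against 0.924% of all genes, and 1 was at least 1.5-fold higher (Xpc), 2.78% against 3.14%. In MP 2 were at least 1.5-fold lower (Xrcc5 and Bard1), 5.56% against 2.24% of all genes, and 0 were higher, against 2.56%. Counted together, 27 of the 36 (75%) were lower in the Smo-deficient pool in both populations, against 39.4% of all genes, and 4 were higher in both (11.1%, against 26.6%). The 4 were Palb2, Rad51d, Xpa and Xpc. Both populations came from the same mice, so the 2 comparisons are not independent.

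**Figure D1:**
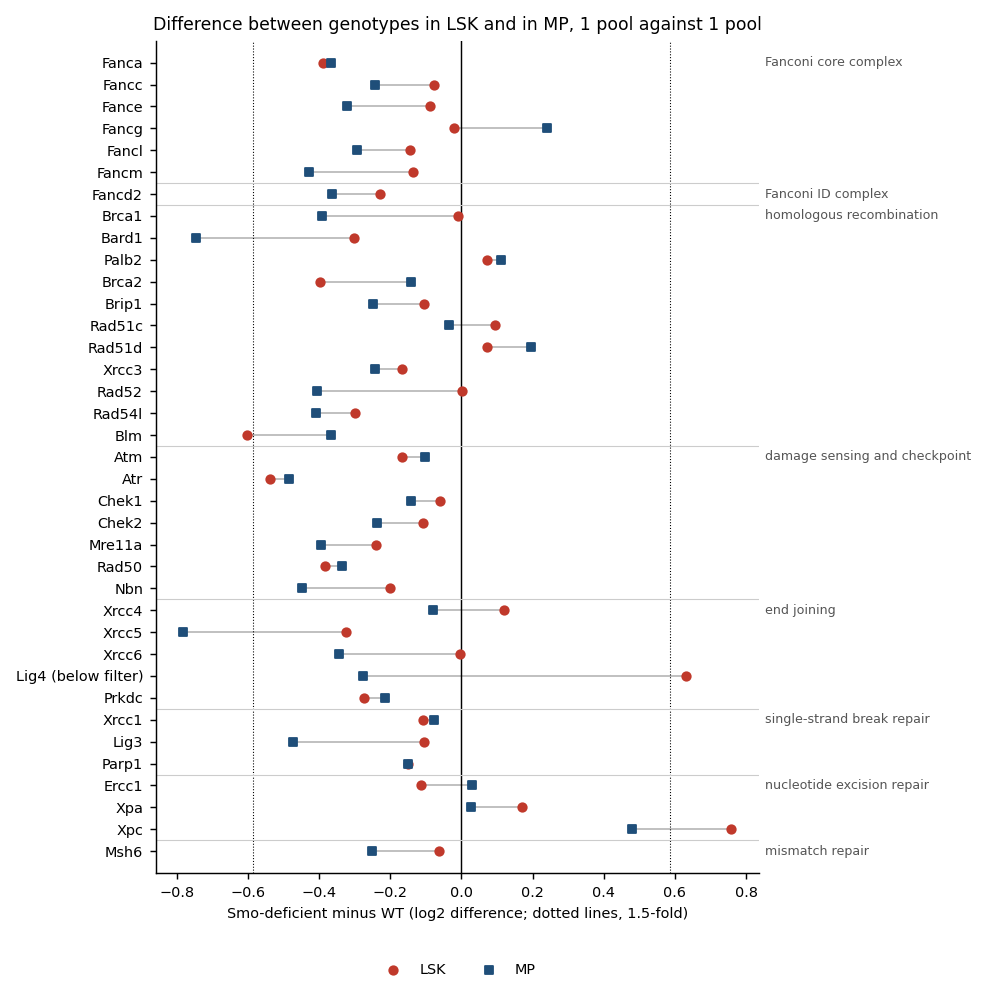
Log2 difference between Smo-deficient and WT cells for each gene (x axis) in LSK (red circles) and in MP (blue squares), 1 pool against 1 pool, grouped by role; dotted lines mark 1.5-fold. Most points lie left of 0, Blm passes the left line in LSK, Xrcc5 and Bard1 pass it in MP, and Xpc lies furthest right in both; Lig4, below the filter, passes the right line in LSK but is not counted.

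Most Fanconi core complex genes had the direction of the whole list. On their brightest probe sets all 6 were lower in Smo-deficient LSK (median -0.11), and 5 of 6 were lower in Smo-deficient MP (median -0.31). Of all genes above the filter, 53.2% were lower in Smo-deficient LSK and 59.7% in Smo-deficient MP. Fanca, a subunit of the complex whose loss is the most frequent cause of Fanconi anemia in people, had log2 intensities of 9.32 in Smo-deficient LSK and 9.71 in WT LSK, and of 9.61 in Smo-deficient MP and 9.98 in WT MP. The Fanca differences were -0.39 in LSK and -0.37 in MP. Its other probe set, below the filter, had 0.06 in LSK and -0.07 in MP, and the median of both was -0.16 in LSK. Fancc, Fance, Fancl, which is the ubiquitin ligase, and Fancm, which moves along DNA and docks the complex, were read on their brightest probe sets too. Their differences ran from -0.14 to -0.08 in LSK and from -0.43 to -0.24 in MP. In MP, dimmer probe sets above the filter had -0.14 and 0.07 for Fancc, -0.19 for Fance and -0.65 for Fancm. Fancg was the exception, with 8.83 in Smo-deficient LSK and 8.86 in WT LSK, and 8.90 in Smo-deficient MP and 8.66 in WT MP. It was the only core gene whose brightest probe set was higher in Smo-deficient MP, by 0.24, and both of its probe sets above the filter were higher there. In LSK they did not share a sign, with -0.02 on the brightest and 0.21 on the other.

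Fancd2, the substrate of the core complex, read 8.61 in Smo-deficient LSK and 8.83 in WT LSK, and 8.96 in Smo-deficient MP and 9.33 in WT MP. The genotype differences were -0.23 in LSK and -0.36 in MP. A dimmer Fancd2 probe set above the filter had -0.54 in LSK and -0.27 in MP. Both probe sets above the filter were thus lower in the Smo-deficient pool but did not share which population differed more. The Fancd2 probe sets below the filter had 0.48 and -0.05 in LSK, and -0.14 and -0.03 in MP.

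Among the genes of homologous recombination, 7 of 11 were lower in Smo-deficient LSK (63.6%, against 53.2% of all genes above the filter). In Smo-deficient MP 9 of 11 were lower (81.8%, against 59.7%). The medians were -0.10 in LSK and -0.25 in MP. Blm, a helicase that takes apart joined DNA molecules late in recombination, had log2 intensities of 10.36 in Smo-deficient LSK and 10.96 in WT LSK, and of 10.85 in Smo-deficient MP and 11.22 in WT MP. Its difference of -0.60 in LSK ranked 104 from the lowest of the 11904 genes, and it was -0.37 in MP. Blm had no second probe set to compare.

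Bard1, the partner of BRCA1 in a ubiquitin ligase, had 7.18 in Smo-deficient LSK and 7.49 in WT LSK, and 7.41 in Smo-deficient MP and 8.16 in WT MP. The MP difference of -0.75 ranked 111 from the lowest, and 3 of the 4 Bard1 values lay close to the level of the filter, with WT MP standing above them. On its brightest probe set Brca1 had 10.83 and 10.84 in Smo-deficient and WT LSK, and 10.90 and 11.29 in Smo-deficient and WT MP. Here too the WT MP array was the high one. The dimmer Brca1 probe sets above the filter had MP differences of -0.36 and 0.01. Rad52, a strand-annealing protein, was also highest in WT MP, with 7.47 and 7.46 in Smo-deficient and WT LSK, and 7.72 and 8.13 in Smo-deficient and WT MP.

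Brca2, a mediator of homologous recombination, parted more in LSK. Its values were 10.73 in Smo-deficient LSK and 11.13 in WT LSK, and 10.75 in Smo-deficient MP and 10.89 in WT MP, with differences of -0.40 in LSK and -0.14 in MP. The WT LSK array was the highest of the 4. Rad54l, a motor protein of recombination, had differences of -0.30 in LSK and -0.41 in MP, and its 3 probe sets above the filter were all lower in Smo-deficient cells, with differences from -0.30 to -0.19 in LSK and from -0.41 to -0.16 in MP. Xrcc3, which acts in recombination, had -0.17 in LSK and -0.24 in MP, and the helicase gene Brip1 had -0.10 in LSK and -0.25 in MP.

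Palb2, Rad51c and Rad51d, beside Rad52, had values above 0 in LSK. Palb2, the bridge between BRCA1 and BRCA2, had 7.16 in Smo-deficient LSK and 7.09 in WT LSK, and 7.43 in Smo-deficient MP and 7.31 in WT MP. Both LSK values were under the filter's 7.23, so the difference of 0.07 is one of dim values. Rad51c, which acts in recombination with Xrcc3, had 8.76 in Smo-deficient LSK and 8.66 in WT LSK, and 8.72 in Smo-deficient MP and 8.75 in WT MP. With the median over its probe sets Rad51c was -0.12 in LSK. Rad51d, another gene of recombination, had 9.24 in Smo-deficient LSK and 9.17 in WT LSK, and 9.14 in Smo-deficient MP and 8.94 in WT MP. The 3 Rad51d probe sets above the filter did not share a sign, with genotype differences from -0.17 to 0.09 in LSK and from -0.24 to 0.20 in MP.

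All 7 genes of damage sensing and checkpoint were lower in the Smo-deficient pool in both populations on their brightest probe sets. Among all genes above the filter 39.4% were lower in both. The medians were -0.20 in LSK and -0.33 in MP. Atr, the kinase that answers stalled forks, had log2 intensities of 10.15 in Smo-deficient LSK and 10.68 in WT LSK, and of 10.26 in Smo-deficient MP and 10.75 in WT MP. The Atr differences were -0.54 in LSK and -0.48 in MP. Its 2 other probe sets were below the filter and had 0.05 and 0.60 in LSK, so a gene value taken as the median of all 3 probe sets gave 0.05 in LSK and -0.13 in MP.

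The genes of the complex that holds broken ends, Mre11a, Rad50 and Nbn, had the same direction as Atr. Rad50 had 10.97 in Smo-deficient LSK and 11.35 in WT LSK, and 10.97 in Smo-deficient MP and 11.31 in WT MP. Nbn had 9.97 in Smo-deficient LSK and 10.17 in WT LSK, and 9.92 in Smo-deficient MP and 10.37 in WT MP. The differences were -0.38 in LSK and -0.33 in MP for Rad50, and -0.20 in LSK and -0.45 in MP for Nbn. Mre11a had differences of -0.24 in LSK and -0.39 in MP. The kinase genes Atm, Chek1 and Chek2 differed less, by -0.17 to -0.06 in LSK and -0.24 to -0.10 in MP. The dimmer Atm probe set above the filter had -0.14 in LSK and 0.05 in MP. Those of Chek1 had -0.12 and 0.05 in LSK, and -0.08 and -0.13 in MP.

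In end joining, Xrcc5, which encodes the Ku80 subunit that grips a broken end, had 9.70 in Smo-deficient LSK and 10.02 in WT LSK, and 9.43 in Smo-deficient MP and 10.21 in WT MP. Its MP difference of -0.78 ranked 93 from the lowest of the 11904 genes, and the LSK difference was -0.32. The Ku70 gene Xrcc6 had 11.89 and 11.90 in Smo-deficient and WT LSK, and 11.58 and 11.93 in Smo-deficient and WT MP, so the Smo-deficient MP array was the low one for both Ku subunits. Prkdc, the catalytic subunit of DNA-PK, had a difference of -0.27 in LSK and -0.21 in MP. Xrcc4, the partner of the end-joining ligase, had 9.003 in Smo-deficient LSK and 8.88 in WT LSK, and 8.63 in Smo-deficient MP and 8.71 in WT MP. The ligase gene Lig4 read 7.25, 6.62, 6.90 and 7.18 in Smo-deficient LSK, WT LSK, Smo-deficient MP and WT MP, close to or below the level of the filter, and was left out of the counts.

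Of the 3 listed genes of nucleotide excision repair, 2 were higher in Smo-deficient LSK and all 3 in Smo-deficient MP. The other genes of this pathway did not share that direction: of 15 above the filter, 13 were lower in Smo-deficient LSK and 14 in Smo-deficient MP. Xpc, which finds distorted DNA and starts this repair, had log2 intensities of 11.55 in Smo-deficient LSK and 10.79 in WT LSK, and of 10.99 in Smo-deficient MP and 10.52 in WT MP. It was 1.69-fold higher in Smo-deficient LSK and 1.39-fold higher in Smo-deficient MP, the most positive difference of the 36 genes in both, ranking 206 and 496 from the highest of the 11904 genes. Xpa, which checks the lesion, had 8.47 in Smo-deficient LSK and 8.30 in WT LSK, and 8.14 in Smo-deficient MP and 8.11 in WT MP. Ercc1, part of the nuclease that cuts beside the lesion, had 11.15 in Smo-deficient LSK and 11.26 in WT LSK, and 11.15 in Smo-deficient MP and 11.12 in WT MP. Xpa and Ercc1 thus differed by at most 0.17 in either direction (with the median over probe sets, Xpa had -0.0049 in LSK and Ercc1 had -0.011 in MP), and Xpc alone of the 3 reached 1.5-fold.

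The genes of single-strand break repair and mismatch repair were a little lower in the Smo-deficient pool on their brightest probe sets. Lig3, a DNA ligase, had 10.63 in Smo-deficient LSK and 10.74 in WT LSK, and 9.93 in Smo-deficient MP and 10.41 in WT MP. The differences were -0.11 in LSK and -0.47 in MP. Its other probe sets above the filter had -0.27 and -0.41 in LSK, and -0.43 and -0.12 in MP. They did not share which population differed more. The Lig3 partner Xrcc1 had -0.11 in LSK and -0.08 in MP. Parp1, which marks breaks with poly-ADP-ribose, had -0.15 in each on its brightest probe set. Slightly dimmer Parp1 probe sets had -0.39 and -0.11 in LSK, and -0.32 and 0.01 in MP. Msh6, which recognises mismatches, had -0.06 in LSK and -0.25 in MP.

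**Figure D2:**
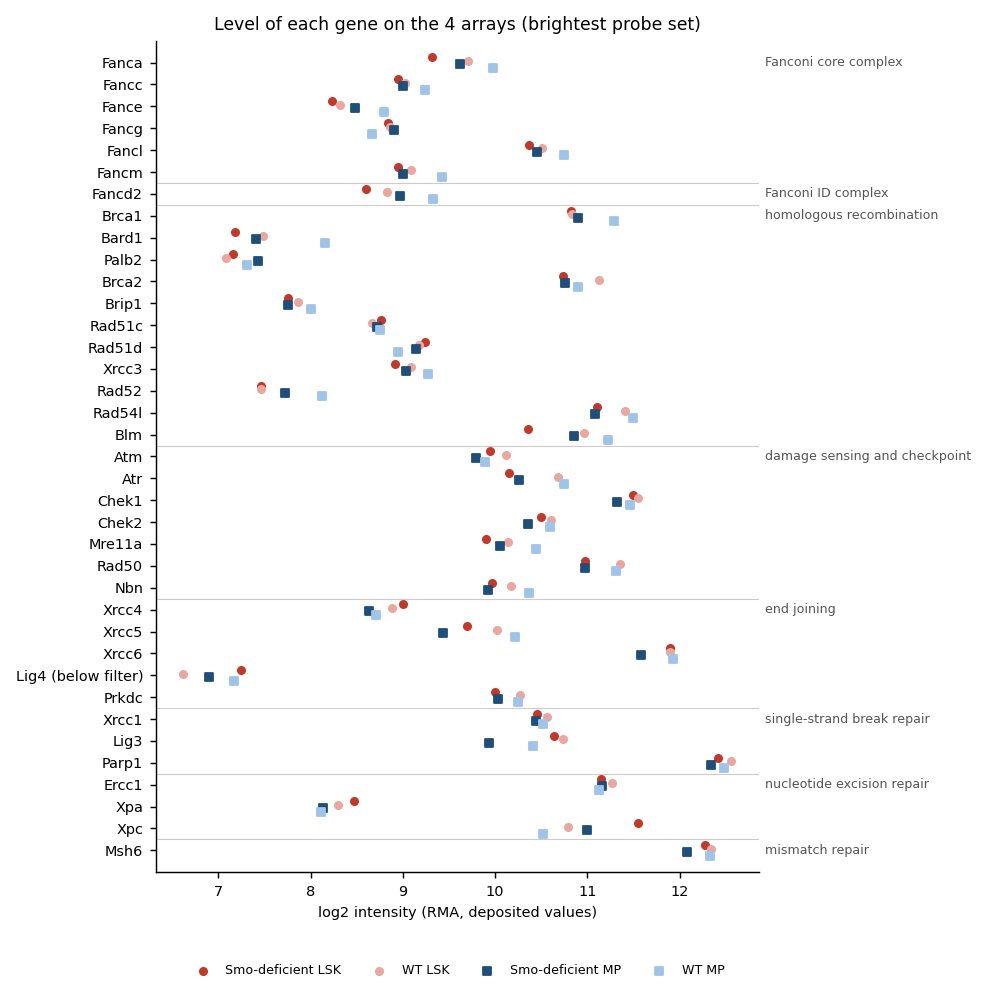
Log2 intensity of the brightest probe set of each gene (x axis) on the 4 arrays, grouped by role, with LSK as red circles and MP as blue squares, the Smo-deficient array dark and the WT array pale. Values are to be compared within a gene only. For Atr the dark points lie left of the pale ones in both populations, and for Xpc they lie to the right.

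Other DNA repair genes, taken from a list of the same pathways without the 38, leaned the same way. Of 116 measured genes, 110 lay above the filter, and 82 of these (74.5%) were lower in Smo-deficient LSK and 87 (79.1%) in Smo-deficient MP. The shares over all genes above the filter were 53.2% in LSK and 59.7% in MP. Medians over the measured other repair genes were -0.09 in LSK and -0.15 in MP. The lowest in LSK were the helicase genes Recql (-0.52) and Recql4 (-0.41) and the checkpoint mediator gene Clspn (-0.49). In MP they were Fanci (-0.53), the partner of Fancd2, Recql4 (-0.51) and Faap24 (-0.50), which helps Fancm bind DNA. The highest in LSK were Dntt (2.15), the nucleotide-adding enzyme of antigen receptor joining, Parp3 (0.41) and Ube2b (0.38), which acts with RAD18 in damage tolerance. In MP they were Dntt (1.17), the glycosylase gene Neil1 (0.48) and Sem1 (0.38), a BRCA2-binding protein. Dntt was the single gene of the 110 past 1.5-fold in either population.

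Genes of the cell cycle had the same direction as most of the repair genes. Of 18 S phase genes above the filter, 16 were lower in Smo-deficient LSK and 16 in Smo-deficient MP, with medians of -0.16 and -0.15. For this and the lists below, the shares over all genes above the filter were 53.2% in LSK and 59.7% in MP. In LSK the largest S phase differences were those of cyclin E1 (Ccne1, -0.62) and the ribonucleotide reductase gene Rrm1 (-0.35), and in MP those of the replication licensing gene Cdc6 (-0.49) and Rrm2 (-0.43). All 16 mitosis genes were lower in both populations, with medians of -0.29 in LSK and -0.37 in MP, among them Plk1 (-0.51 in LSK, -0.55 in MP) and Bub1b (-0.43 in LSK, -0.66 in MP), which act in chromosome segregation. The part of cell cycle genes in the difference of the repair genes was not tested. Of 13 p53 target genes above the filter, 2 were lower in Smo-deficient LSK and 9 in Smo-deficient MP, with medians over 16 measured genes of 0.17 and -0.08. The largest of these differences were those of Trp53inp1, with 1.38 in LSK and 0.63 in MP, and Sesn1, with 0.48 in LSK and 0.43 in MP.

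**Figure D3:**
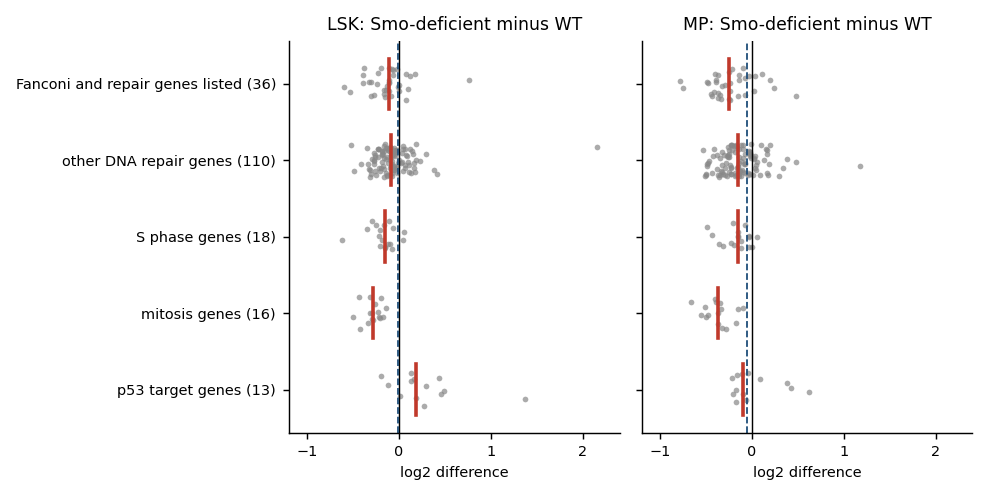
Log2 difference between Smo-deficient and WT cells (x axis) for genes above the filter in 5 lists, with LSK in the left panel and MP in the right; each grey point is a gene, red bars are list medians and the dashed blue line is the median of all genes above the filter. The repair and cell cycle lists have their medians left of the dashed line in both panels, and the far point among other repair genes is Dntt.

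The Smo-deficient LSK array also had the higher levels of markers of several mature cells. Levels are the log2 of the summed intensities of a list. Neutrophil markers were higher in Smo-deficient LSK in 8 of 8 measured genes and in Smo-deficient MP in 8 of 8, with 16.84 in Smo-deficient LSK and 16.18 in WT LSK, and 16.64 in Smo-deficient MP and 16.46 in WT MP. B cell markers were higher in Smo-deficient LSK in 7 of 7 measured genes and in Smo-deficient MP in 5 of 7, with 11.54 in Smo-deficient LSK and 10.98 in WT LSK, and 11.19 in Smo-deficient MP and 10.92 in WT MP. Macrophage markers were higher in Smo-deficient LSK in 7 of 8 measured genes and in Smo-deficient MP in 3 of 8, with 11.74 in Smo-deficient LSK and 11.06 in WT LSK, and 11.56 in Smo-deficient MP and 11.44 in WT MP. For these lists the genotypes lay further apart in LSK than in MP. Mature erythroid markers were higher in Smo-deficient LSK in 5 of 5 measured genes and in Smo-deficient MP in 4 of 5, with 13.57 in Smo-deficient LSK and 12.86 in WT LSK, and 13.27 in Smo-deficient MP and 12.97 in WT MP. T and NK cell markers were higher in Smo-deficient LSK in 4 of 7 measured genes and in Smo-deficient MP in 4 of 7, with 10.41 in Smo-deficient LSK and 10.34 in WT LSK, and 10.46 in Smo-deficient MP and 10.44 in WT MP. Stroma and endothelium markers were higher in Smo-deficient LSK in 2 of 8 measured genes and in Smo-deficient MP in 2 of 8, with 10.41 in Smo-deficient LSK and 11.12 in WT LSK, and 10.58 in Smo-deficient MP and 10.54 in WT MP. Markers of stem and progenitor cells differed too, some by more than any repair gene listed. Higher in the Smo-deficient pool were Flt3 (1.21 in LSK, 0.95 in MP), Csf1r (1.21 in LSK, 1.09 in MP) and Procr (1.11 in LSK, 0.68 in MP). Lower were the erythroid regulators Gata1 (-0.79 in LSK, -0.54 in MP) and Klf1 (-0.69 in LSK, -0.48 in MP) and the receptor gene Epor (-0.76 in LSK, -0.72 in MP). In the whole lists, 7 of 8 LSK and stem cell markers were higher in Smo-deficient LSK and 6 of 8 in Smo-deficient MP, and 6 of 9 myeloid progenitor markers in each. Ebf1, Marco, Hba-a1, Cdh5, Col1a1, Col3a1, Cxcl12, Lepr, Cd3d, Cd3g, Cd8b1 and Ncr1 lay below the filter, and the part of such cells in the repair gene values was not tested.

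Few of the repair genes passed the test between LSK and MP. With limma over all probe sets above the filter and the pool as a block, 3 of the 36 genes passed a Benjamini-Hochberg adjusted p of 0.05 (8.33%), against 23.9% of all 11904 genes. After a further quantile normalization 7 passed (19.4%, against 26.7%), and with the median over a gene's probe sets 6 of 34 (17.6%, against 24.8%). Of the 3, 2 were higher in LSK (5.56%, against 16.4% of all genes) and 1 was lower (2.78%, against 7.54%). The median of LSK minus MP over the 37 measured genes was -0.02, beside -0.04 over all 18193 genes, dim ones included. Above the filter it was -0.016 over the listed genes, beside 0.00048 over all genes. The 2 pools that serve as replicates differ in genotype, so a genotype effect on LSK minus MP counts as spread in this test, and its p-values carry no estimate of how mice of 1 genotype vary.

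Fancd2 was lower in LSK than in MP, by 0.36 in the Smo-deficient pool and 0.49 in the WT pool. The mean log2 difference was -0.43 ± 0.11 (SE, 2 pools; limma adjusted p = 0.0390). Both Fancd2 arrays of LSK lay below both of MP. The dimmer probe set above the filter differed by -0.68 and passed too, so both readings of the gene had this direction. The adjusted p of the brightest probe set was 0.0595 when no filter was applied and 0.212 without the pool as a block (limma).

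Xpc was higher in LSK, by 0.55 in the Smo-deficient pool and 0.27 in the WT pool, with a mean of 0.41 ± 0.11 (SE, 2 pools; limma adjusted p = 0.0455). Its groups overlapped, because Smo-deficient MP (10.99) lay above WT LSK (10.79). Without the pool as a block the adjusted p was 0.442, and without the trend in the moderated variance it was 0.0610 (limma). The difference in the Smo-deficient pool was the larger.

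Lig3 was higher in LSK on its brightest probe set, by 0.70 in the Smo-deficient pool and 0.33 in the WT pool. The mean was 0.52 ± 0.13 (SE, 2 pools; limma adjusted p = 0.0326), and both LSK arrays lay above both MP arrays. The other 2 Lig3 probe sets above the filter had the opposite sign, with -0.23 and -0.34, and neither passed. The direction for Lig3 therefore rests on the choice of probe set, and without the pool as a block the adjusted p was 0.189 (limma).

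Without the pool as a block 0 of the 36 genes passed with limma, while 5.41% of all genes did. At an unadjusted p under 0.05 that fit had 4 of the 36, against 24.2% of all genes. With the block, 8 of the 36 had an unadjusted p under 0.05, against 37.7% of all genes. Next to the threshold were Rad52 (-0.46 ± 0.13, SE, limma adjusted p = 0.0519), Blm (-0.38 ± 0.11, 0.0564), Bard1 (-0.45 ± 0.14, 0.0614) and Fance (-0.37 ± 0.12, 0.0702), all with lower values in LSK. Fance links the core complex to FANCD2, and 5 of the 6 core genes had values below 0, though none passed.

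In LSK minus MP, 19 of the 36 genes (52.8%) had a value below 0, against 49.9% of all genes above the filter. By role, the values of recombination genes lay below 0 in 9 of 11 cases, with a median of -0.15, and those of damage sensing in 3 of 7, with a median of 0.02. Of the 4 end-joining genes above the filter 1 had a value below 0, and of the single-strand break, nucleotide excision and mismatch repair genes none of 7 did, with medians of 0.08, 0.26 and 0.11. The other genes of these pathways above the filter lay below 0 in 4 of 7 cases for end joining, 5 of 17 for base excision and single-strand break repair, 10 of 15 for nucleotide excision repair and 3 of 5 for mismatch repair. Xrcc4 had 0.27 on its brightest probe set, which did not pass (limma adjusted p = 0.146), and 0.89 on a dimmer one, which did (limma adjusted p = 0.00315). On that dimmer probe set Xrcc4 read 8.89 in Smo-deficient LSK, 8.46 in WT LSK, 7.89 in Smo-deficient MP and 7.67 in WT MP, with both LSK arrays above both MP arrays. Over all 60 probe sets of the listed genes above the filter, 5 passed (8.33%), against 22.3% of all 22518 probe sets above the filter.

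**Figure D4:**
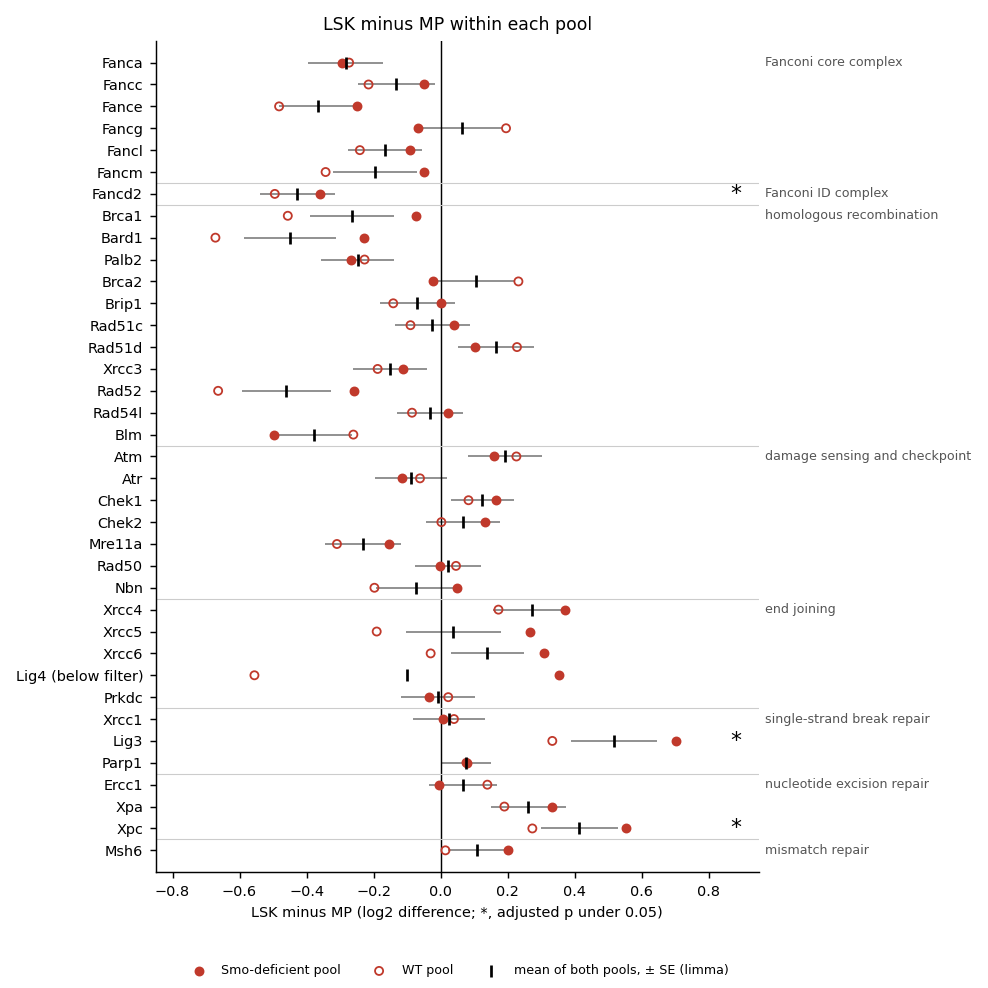
Log2 difference of LSK minus MP for each gene (x axis) in the Smo-deficient pool (filled circles) and the WT pool (open circles), with the mean of both pools (tick) and its SE from limma (line); asterisks mark an adjusted p under 0.05. Fancd2, Lig3 and Xpc carry an asterisk, and Lig4, below the filter, has no SE.

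Of the listed genes, 16 had at least 2 probe sets above the filter. All probe sets of a gene shared the sign of LSK minus MP in 9 of the 16, of the genotype difference in LSK in 12 and of that in MP in 9. The widest spreads in LSK minus MP were those of Lig3 (-0.34 to 0.52), Xrcc4 (0.27 to 0.89) and Fancm (-0.20 to 0.33). Brca1, with 3 probe sets between -0.34 and -0.26, and Parp1, with 3 between 0.04 and 0.08, were read alike by all of them in LSK minus MP.

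**Figure D5:**
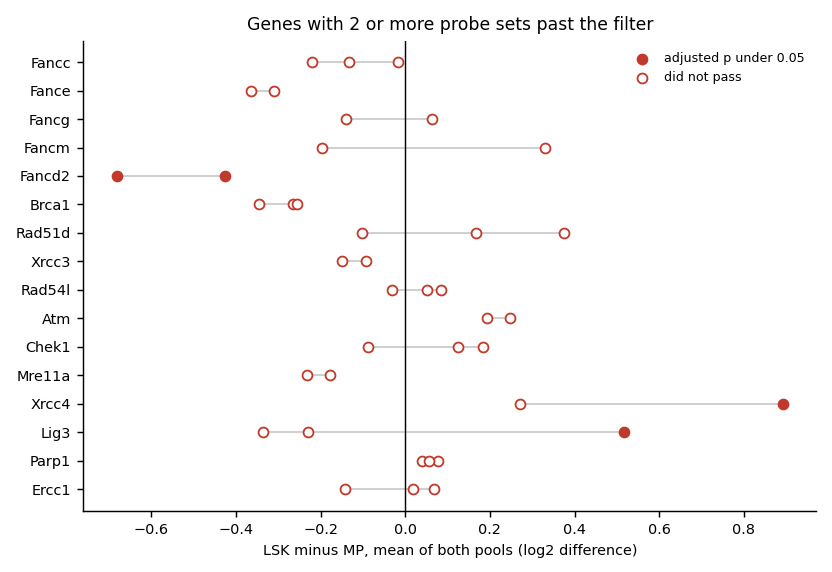
LSK minus MP (x axis, log2 difference, mean of both pools) of every probe set above the filter, for the 16 genes with 2 or more; filled circles passed an adjusted p of 0.05 and open circles did not. Both Fancd2 probe sets are filled and left of 0, while Lig3 has 1 filled circle right of 0 and 2 open ones left of it.

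Among the other repair genes 10 of the 110 were called higher in LSK (9.09%, against 16.4% of all genes) and 10 lower (9.09%, against 7.54%). The highest were Dntt (2.63, limma adjusted p = 0.000668), the damage mediator gene Trp53bp1 (0.73, adjusted p = 0.00141) and Ddb2 (0.50, adjusted p = 0.0248), which like Xpc finds lesions for excision repair. The lowest were the end-joining factor Aplf (-0.76, adjusted p = 0.00515), Recql4 (-0.63, adjusted p = 0.0105) and the helicase gene Wrn (-0.51, adjusted p = 0.0165). Of the other recombination genes 6 of 18 were called lower in LSK (33.3%) and 1 higher (5.56%). For the cell cycle lists, 2 of 18 S phase genes (11.1%) and 1 of 16 mitosis genes (6.25%) were called lower and 0 higher, with medians of -0.06 and -0.03.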

How the data were processed

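RNA of 4 sorted samples, 20 ng each, was amplified in 2 rounds and hybridised to Affymetrix mouse arrays, per the labels' protocols. The authors deposited 1 table of intensity values, made with RMA per the submitters' processing notes in a version that no source used here gives. The deposited arrays had median intensities of 149.1 to 150.3 but upper quartiles of 543.1 to 609.7, so their distributions were not identical. The deposited intensity values ran from 12.3 to 44290.5, were read as linear and were taken to log2 without a pseudocount. The 64 control probe sets were set aside, which left 45037. Gene names came from the platform annotation: 34945 probe sets had 1 gene, 932 several and 9160 none. The 22518 probe sets (11904 genes) with a mean log2 above the median of 7.23 were kept for counts and tests.

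LSK was tested against MP with limma 3.58.1 in R 4.3.3 (lmFit, eBayes with trend, two-sided, Benjamini-Hochberg over the 22518 probe sets), with the pool as a block because LSK and MP of a genotype were sorted from the same mice, which leaves 1 residual degree of freedom before moderation. The fit was also run on simulated noise without a pool effect, with log2 differences of 1 and 2 added, and 100% of both were recovered. Those differences are larger than those of the 3 listed genes called here, so recovery at that smaller size was not tested. The genotype comparison has 1 array per group and no test. The number of arrays limits the precision. Gene-level values are those of the brightest single-gene probe set. All listed genes could be named; values per array were given for genes called between LSK and MP and for the 5 highest and 5 lowest in each genotype comparison, and of other repair genes the 3 highest and 3 lowest were named, and of the cell cycle and p53 lists the 2 largest. Values per array of a few further genes and the promoter windows of Bard1, Blm and Xrcc5 were chosen after their values were seen. The members and lists were chosen with earlier results of these data known. Alternatives were another quantile normalization, an offset of 32, no filter, the median over a gene's probe sets, no pool block, no trend, a 2-fold threshold and leaving out each pool. Promoter sequences are RefSeq's (GRCm38.p6). No scanner files were used here.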

Additional observations from a re-analysis of the deposited data

Results flagged for a closer look

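Several genes had genotype differences of opposite sign in LSK and MP, each from 1 pool against 1 pool, and the difference between the populations was not tested. The largest was that of Lig4, at 0.63 in LSK and -0.28 in MP, a difference of 0.91, on a probe set below the filter. Rad52 had 0.0020 in LSK, almost no difference, and -0.40 in MP (difference 0.41). Its probe set below the filter had 0.44 in LSK and -0.32 in MP. Xrcc4 had 0.12 in LSK and -0.08 in MP (difference 0.20), but its other probe set above the filter had 0.43 in LSK and 0.22 in MP, of 1 sign. Rad51c had 0.09 in LSK and -0.04 in MP (difference 0.13), while its probe set below the filter had -0.32 in LSK and -0.10 in MP. Running the other way, Fancg had -0.02 in LSK and 0.24 in MP (difference -0.26), but its other probe set above the filter had 0.21 in LSK and 0.19 in MP, of 1 sign. Ercc1 had -0.11 in LSK and 0.03 in MP (difference -0.14). Apart from Lig4, these were 5 of the 36 genes above the filter (13.9%), against 34.0% of all genes above the filter.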

How the results depend on the processing

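The medians over the listed genes moved by at most 0.1 under every alternative run, with -0.13 in LSK and -0.20 in MP for genotype under quantile normalization, where the median of all genes above the filter in MP was 0.0012 in place of -0.05. Then 28 of 36 genes (77.8%) were lower in Smo-deficient MP, against 49.8% of all genes. LSK minus MP had a median of -0.0031 in the Smo-deficient pool and -0.09 in the WT pool. The count of genes called between LSK and MP, 3 as reported, was 7 after quantile normalization (5 lower in LSK; 19.4%, against 26.7% of all genes), 4 with the offset (2 lower; 11.1% against 24.3%), 6 with the median over probe sets (4 lower; 17.6% against 24.8%), 2 without a filter (0 lower; 5.41% against 15.5%), 2 without the trend (1 higher; 5.56% against 20.1%) and 0 without the pool block (0 higher, 0 lower; 0% against 5.41%). Of all calls, 68.5% were higher in LSK, but 55.1% after quantile normalization. The adjusted p (limma) ranged over the alternatives from 0.0166 to 0.212 for Fancd2, 0.0275 to 0.189 for Lig3 and 0.0269 to 0.442 for Xpc. With the median over probe sets Lig3 was -0.34 in LSK minus MP, and genotype differences turned to 0.051 for Atr in LSK, -0.0049 for Xpa in LSK, -0.12 for Rad51c in LSK, -0.011 for Ercc1 in MP and -0.13 for Rad51d in MP, since dimmer probe sets differ in sign. By genotype, 1 gene (Xpc) was 1.5-fold higher in MP after quantile normalization, 2 were 1.5-fold higher in LSK without a filter (Xpc and Lig4), and 0 reached 2-fold in either direction. With 1 pool left out, LSK minus MP ranged from 0.33 to 0.70 for Lig3 and from 0.27 to 0.55 for Xpc. The causes of the other changes were not tested. No paired analysis by replicate number was possible because the labels give only replicate 1, so the pool served as the pair. Values near the filter, those of Palb2, Bard1, Rad52 and Lig4, are dim, which limits their differences.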
